A study of Mus musculus with 4 samples.

Results

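Mural nuclei of the hippocampus, that is nuclei of pericytes and vascular smooth muscle cells, were picked out of single-nucleus RNA sequencing data and compared between Cyfip2+/R87C knock-in (KI) mice and wild-type (WT) mice. The nuclei were selected on their own measured counts. A nucleus was a member when at least 3 of 7 mural markers (Pdgfrb, Rgs5, Atp13a5, Vtn, Abcc9, Kcnj8, Notch3) had a UMI, fewer than 2 of 10 genes of other cell types had one (Mobp, Mog, Prr5l, Pdgfra, Gja1, Inpp5d, Cldn5, Mecom, Col1a1, Slc6a13), and Gad1, Gad2 and Slc17a7 together had at most 3 UMIs. A UMI, or unique molecular identifier, stands for 1 captured RNA molecule. The rule found 112 nuclei among the 55295 barcodes kept for having 500 or more genes and less than 5% of UMIs from mitochondrial genes. The 4 libraries were 2 WT and 2 KI, from the frozen hippocampus of both hemispheres of untreated adult mice, with KI mice kept on the C57BL/6N background. KI mice carry 1 R87C allele of Cyfip2 in the germline, so the change is not specific to a cell type. Nothing in the sources used here says which libraries came from separate mice, so p-values measure only the spread between libraries. The treatment label of KI replicate 2 reads R88C where that of KI replicate 1 reads R87C; both are labelled KI.

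Pericytes sit on the wall of brain capillaries inside the basement membrane that they share with endothelial cells. They depend on endothelial PDGF-B acting on the receptor PDGFRB, help to form the blood-brain barrier and regulate capillary diameter. Smooth muscle cells wrap arterioles and carry a contractile apparatus built on smooth muscle actin and myosin. Cyfip2 codes for a subunit of the WAVE regulatory complex, which drives branched actin assembly.

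The members carried pericyte markers, and 4 of the 15 smooth muscle contractile genes listed were at 0. Acta2, Tagln, Cnn1 and Actg2, which code for smooth muscle actins and actin-binding proteins, had 0 UMIs in all 112 nuclei, which allows up to 3 UMIs among 298291. Myh11, the smooth muscle myosin heavy chain, had UMIs in 11 nuclei, Myl9 in 16, Lmod1 in 3 and Mylk in 38. Of the 15 contractile genes listed, 11 had at least 1 UMI. Atp13a5, a transporter ATPase that marks brain pericytes, had a UMI in 98 members and Pdgfrb in 82. Vtn, which codes for the matrix protein vitronectin, was found in 80, the potassium channel subunit gene Abcc9 in 66 and its partner Kcnj8 in 18. Notch3, a receptor needed for the mural lineage, was found in 57 and Rgs5, a regulator of G protein signalling, in 56. These 7 genes chose the nuclei, so the counts describe the rule. Of the members, 41 had exactly 3 markers, 35 had 4, 22 had 5, 14 had 6 and 0 had 7.

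Kcnj8 and Abcc9, whose products form the ATP-sensitive potassium channel of pericytes, lie next to each other on chromosome 6. Their promoters and that of Vtn are shown because these 3 markers hold the letters TGGGAA, the core of the sequence that RBPJ, the DNA-binding partner of Notch receptors, is known to bind. The windows run from 250 bases before to 50 after the RefSeq start in GRCm38.p6 and read 5′ to 3′ on the gene's strand, at chr6:142571565-142571864 (minus strand), chr6:142702225-142702524 (minus strand) and chr11:78498870-78499169 (plus strand). Capitals mark TGGGAA or its reverse complement TTCCCA.
Kcnj8: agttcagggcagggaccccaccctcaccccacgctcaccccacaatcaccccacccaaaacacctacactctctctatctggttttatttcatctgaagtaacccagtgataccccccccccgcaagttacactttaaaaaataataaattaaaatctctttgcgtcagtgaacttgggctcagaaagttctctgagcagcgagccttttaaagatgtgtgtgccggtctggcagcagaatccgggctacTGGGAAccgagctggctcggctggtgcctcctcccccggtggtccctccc
Abcc9: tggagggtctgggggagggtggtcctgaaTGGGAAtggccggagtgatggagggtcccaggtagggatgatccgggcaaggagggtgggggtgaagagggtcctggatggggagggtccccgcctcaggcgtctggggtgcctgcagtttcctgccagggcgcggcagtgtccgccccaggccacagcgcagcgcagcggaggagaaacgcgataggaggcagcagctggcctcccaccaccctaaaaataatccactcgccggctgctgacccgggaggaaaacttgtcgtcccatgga
Vtn: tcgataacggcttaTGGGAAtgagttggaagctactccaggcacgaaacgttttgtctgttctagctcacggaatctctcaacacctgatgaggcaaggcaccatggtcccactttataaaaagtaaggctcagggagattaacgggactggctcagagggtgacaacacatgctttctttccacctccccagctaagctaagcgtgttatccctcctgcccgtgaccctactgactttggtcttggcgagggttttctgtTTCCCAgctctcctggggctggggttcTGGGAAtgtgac
Promoters were found in RefSeq for 6 of the 7 rule markers and for 38 of 49 genes when the 20 other pericyte genes listed and the 25 genes of highest ratio to all other nuclei were added, 5 of which are named below for that ratio. The letters occurred on either strand in 13 of the 51 promoter windows of these genes (25.5%) and in 25.6% of all 32851 windows of the same length. CCCNNGGG, the core letters bound by EBF factors, occurred in 19.6% and 13.7%. A match in these letters is a description of the window and not a measured binding site.

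The members were few and shallow. There were 27 in each WT library and 29 in each KI library, with medians of 1401 and 1595 UMIs in WT replicates 1 and 2 and 1391 and 1276 in KI replicates 1 and 2. All kept nuclei had medians between 3987 and 4853 UMIs. The summed counts over members were 42291, 86426, 94209 and 75365 UMIs in WT replicates 1 and 2 and KI replicates 1 and 2.

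Within the members, 20 nuclei with over 3000 UMIs stood apart and held 57.7% of all member UMIs. They were unevenly spread, with 1 and 8 in WT replicates 1 and 2 and 4 and 7 in the matching KI replicates, and they made up 11.8%, 69.3%, 63.2% and 63.4% of the UMIs of the 4 sums. The neuronal genes Snap25 and Syt1 together had over 3 UMIs in 17 of these 20 nuclei and in 11 of the 92 shallower ones. Rule markers summed to between 5740 and 7537 CPM (counts per 1e+06 UMIs) in the shallower members of each library and to between 403 and 1423 CPM in the deep ones. The 8 neuron markers listed summed to between 1922 and 2793 CPM in the shallower members and between 3992 and 6906 CPM in the deep ones. In excitatory neurons they summed to between 6026 and 6751 CPM. A Scrublet doublet score above 0.25 was found for 2 members, both of them deep. The comparisons below were therefore made over all 112 members and again over the 92 members with at most 3000 UMIs, a limit chosen after these depths were seen. Levels are over all members unless the shallower members are named. Between 39 and 66 barcode sequences were shared by any 2 libraries, out of at least 12555 kept in each.

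**Figure D1:**
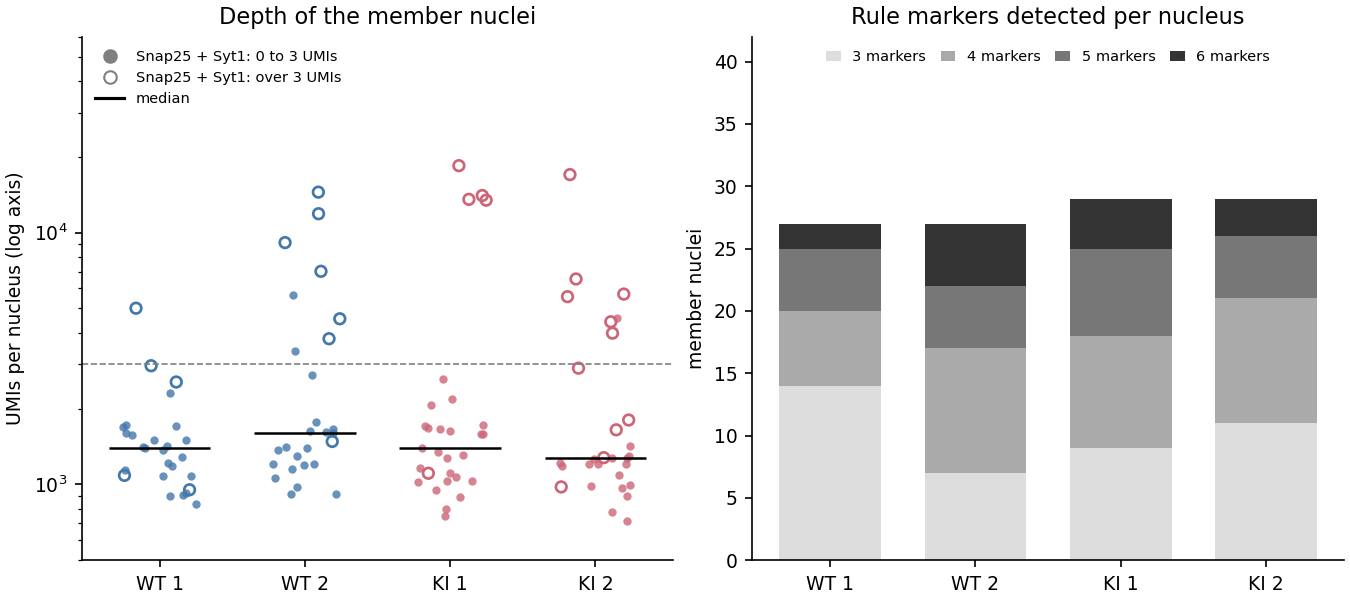
UMIs of each member nucleus by library on a log axis (left; open circles have over 3 UMIs of Snap25 and Syt1, black lines are medians, the dashed line is at 3000 UMIs) and the number of members by rule markers detected (right). WT replicate 1 has 1 nucleus above the line, against 8, 4 and 7 in WT replicate 2 and KI replicates 1 and 2.

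Beside the rule markers, other pericyte genes were higher in the members than in excitatory neurons. This contrast was made by the selection of the nuclei and is given as a description without a test. Ebf1, a transcription factor gene, stood at 1301 and 787 CPM in the WT sums and 998 and 836 CPM in the KI sums, with a mean of 521 CPM in endothelial nuclei and 1.09 CPM in excitatory neurons. Slc6a20a, an amino acid transporter gene, stood at 1064 and 474 in WT against 403 and 517 CPM in KI. It was also found in fibroblast nuclei, at a mean of 684 CPM, and barely in endothelial nuclei, at 14.2 CPM. Slc38a11, a transporter gene of another family, stood at 591 and 382 in WT against 191 and 398 CPM in KI, with 0 CPM in endothelial and 1.63 CPM in fibroblast nuclei. All 20 pericyte genes listed outside the rule had a UMI in the members. The summed level of that list was 4374 and 2777 in WT against 2516 and 2985 CPM in KI over all members. It was 4828 and 6407 in WT against 6370 and 5695 CPM in KI over the shallower ones, but between 269 and 1423 CPM in the deep ones. In excitatory neurons it was between 163 and 239 CPM, and the lowest deep value was that of KI replicate 1.

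After each nucleus was thinned to 1000 UMIs, which left 93 members, Ebf1 had a UMI in 74.2% of members, 50% of endothelial nuclei and 0.207% of excitatory neurons. For Atp13a5 the thinned shares were 73.1%, 0% and 0.138%. For Pdgfrb they were 53.8%, 0% and 0.414%. Both genes are rule markers, and the rule for endothelial nuclei limited both. Their shares in members and in endothelial nuclei therefore follow largely from the selection. The share in excitatory neurons, which should lack these genes, gives a background level at this depth. The source of that background was not tested. Thinning left out 19 members and 29 endothelial nuclei that had fewer UMIs, and kept 50 endothelial nuclei and all 1450 excitatory neurons.

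The genes with the highest ratio of members to all other nuclei, outside the rule and with a UMI in at least 20 members, were chosen after their values were seen. Tbx3os1, a transcript antisense to the T-box gene Tbx3, had UMIs in 55 members at a mean of 355 CPM against 0.442 CPM in all other nuclei. Carmn, a long noncoding RNA of the smooth muscle and mural lineage, was found in 45 members at 255 CPM against 0.479 CPM. Pla1a, a phospholipase gene, was found in 31 members at 132 CPM against 0.333 CPM. Pla2r1, a phospholipase receptor gene, was found in 21 members at 75.7 CPM against 0.233 CPM. Egflam, which codes for the matrix protein pikachurin, was found in 43 members at 271 CPM, at a ratio of 225 to all other nuclei. None of these 5 is a gene of the contractile list.

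The rule has a threshold at 3 markers. The pericyte genes outside the rule summed to 458 CPM in the 119 nuclei with exactly 2 markers that met every other condition, to 1749 CPM in the 41 members with exactly 3, and to 4074 CPM in the 71 members with more. Of 161 nuclei with at least 3 markers, 49 were removed by the genes of other cell types. Among members, 42 still had 1 of the 10 exclusion genes.

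**Figure D2:**
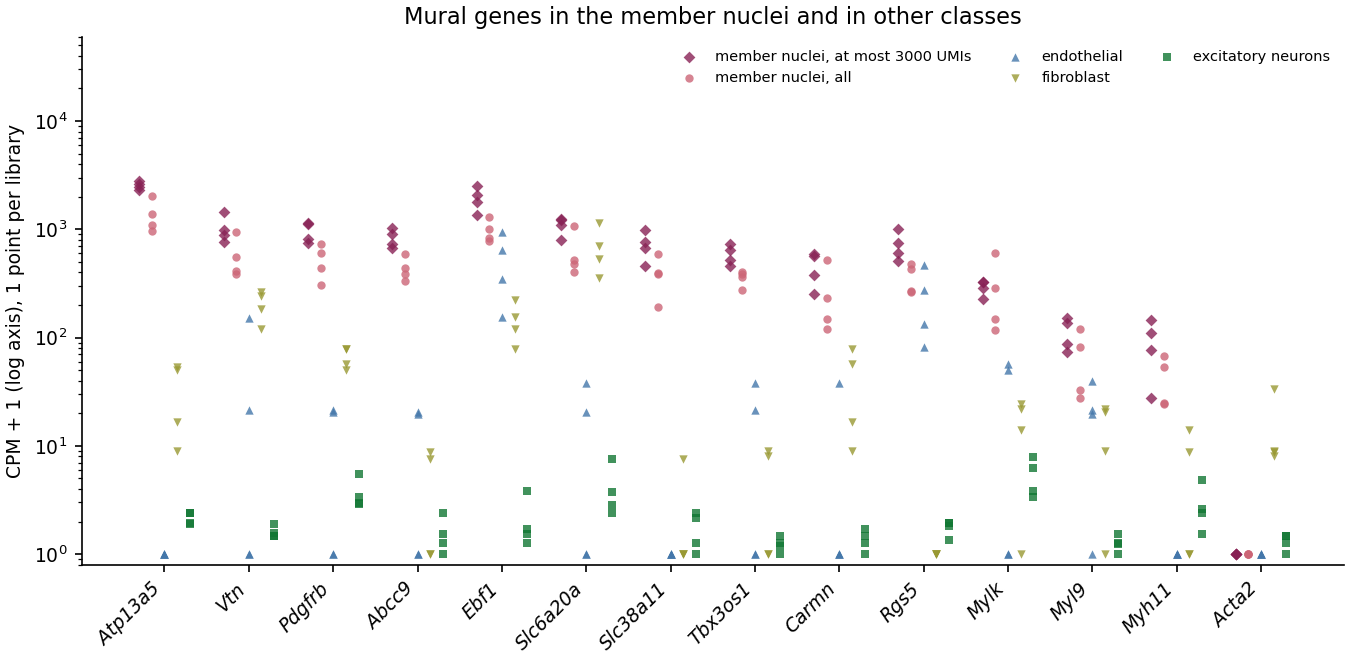
Level of 14 mural genes as CPM + 1 on a log axis, 1 point per library, in all members, in members with at most 3000 UMIs, and in endothelial, fibroblast and excitatory neuron nuclei. Atp13a5 lies between 955 and 2034 CPM in all members and at 0 CPM in endothelial nuclei, while Acta2 lies at 0 CPM in the members. The rules of both classes use Atp13a5.

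Whether the KI mice had more or fewer mural nuclei was asked with shares of nuclei. Members made up 0.169% of the kept nuclei in WT replicate 1 (exact 95% binomial interval 0.111 to 0.246%), 0.205% in WT replicate 2 (0.135 to 0.298%), 0.231% in KI replicate 1 (0.155 to 0.332%) and 0.213% in KI replicate 2 (0.143 to 0.306%). Both KI libraries lay above both WT libraries, at a mean of 0.222% ± 0.0125 against 0.187% ± 0.0256 (SD, n = 2 libraries each). The exact two-sided permutation test gave p = 0.333, the smallest value 2 against 2 libraries allow. The intervals of all 4 libraries overlapped. With the members of at most 3000 UMIs the means were 0.180% in KI and 0.154% in WT (p = 0.667), and with every nucleus thinned to 1000 UMIs before the rule they were 0.142% and 0.134% (p = 0.667, both exact permutation tests). Shares of captured nuclei also move with the number of all other nuclei, so vascular nuclei served as a second denominator.

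Among mural, endothelial and fibroblast nuclei together, members made up 29.3% and 33.3% in WT against 34.5% and 31.9% in KI. The groups overlapped, and the mean difference was 1.86 percentage points (exact permutation p = 0.667, where 0.333 is the smallest value possible). There were 79 endothelial and 157 fibroblast nuclei by their own marker rules. The share of members with UMIs of at least 2 contractile genes was 22.2% and 37.0% in WT and 27.6% in each KI library, with exact intervals that ran from 8.62 to 42.3% in WT replicate 1, from 19.4 to 57.6% in WT replicate 2 and from 12.7 to 47.2% in each KI library. The groups overlapped (exact permutation p = 1), and 2 against 2 libraries could not have passed 0.05 in any of these share tests. Intervals cover counting error only.

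**Figure D3:**
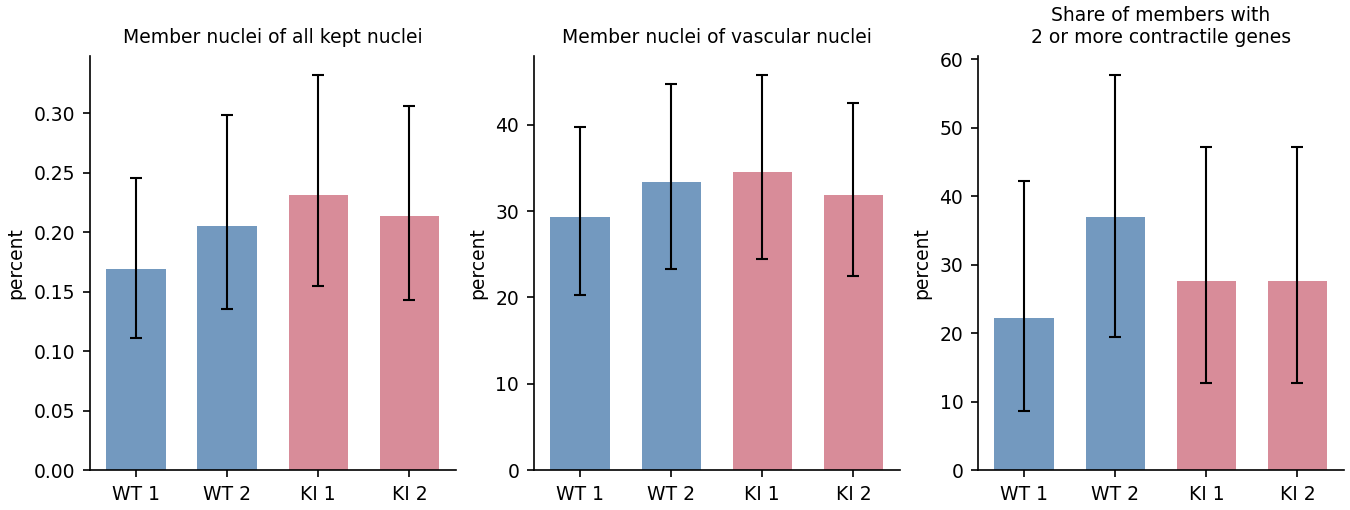
Share of member nuclei among all kept nuclei (left) and among mural, endothelial and fibroblast nuclei (middle), and share of members with UMIs of at least 2 contractile genes (right), in percent for each library with exact 95% binomial intervals. The intervals of the 4 libraries overlap in each panel.

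Gene levels were compared between KI and WT on the UMIs summed over the members of each library, with the quasi-likelihood test of edgeR and p-values adjusted by Benjamini-Hochberg over all genes tested. No gene of 1577 tested passed an adjusted p of 0.05 (0% called), and the smallest adjusted p was 0.151. An unadjusted p below 0.05 was found for 141 genes (8.94%), of which 95 were higher in KI (6.02%) and 46 lower (2.92%). DESeq2 called 9 genes, all higher in KI, and gave no adjusted p to 795 of the 1577. The 9 included Cntn4, Pcdh15, Kcnc2, Il1rapl2 and Etl4, which are described below. Over the members of at most 3000 UMIs 401 genes could be tested, again with 0 calls (0%), and 25 had an unadjusted p below 0.05 (6.23%), 19 of them higher (4.74%) and 6 lower (1.5%). Malat1, an abundant nuclear RNA, took a larger share of both KI libraries as a whole, at 8.89% and 8.71% of all UMIs in WT and 13.7% and 12.1% in KI. In the shallower members it was at 143183 and 166045 in WT against 188621 and 176176 CPM in KI (log2 0.32 ± 0.13, adjusted p = 0.675), and its part in the other differences was not tested. The groups did not overlap for 290 genes higher in KI (18.4%) and 319 lower (20.2%) over all members, and for 62 higher (15.5%) and 81 lower (20.2%) over the shallower members. The sums of the 2 libraries of a genotype differed by more than counting noise, with a chi-square per degree of freedom of 2.65 in WT and 2.66 in KI.

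Cyfip2 (chromosome 11, 46193850 to 46312859, minus strand, GRCm38) was sparse in the members. Its level was 47.3 and 162 in WT against 42.5 and 199 CPM in KI, from 35 UMIs in 22 nuclei. The groups overlapped, with a log2 fold change of 0.05 ± 0.85 (SE). The sequence of the knock-in allele is not read by these counts, so this level is no check of the genotype. Of the 12 genes of the WAVE complex, 10 had a UMI in the members, 5 could be tested and 0 had an unadjusted p below 0.05, against 8.94% of all tested genes. Nckap1, a core subunit, stood at 426 and 312 in WT against 223 and 172 CPM in KI, with a log2 ratio of -0.82 ± 0.45 (SE, adjusted p = 0.621). Abi1 stood at 213 and 185 in WT against 84.9 and 252 CPM in KI. Abi2 stood at 284 and 162 in WT against 265 and 199 CPM in KI. In the shallower members Nckap1 was at -0.51 ± 0.43 and Abi2 at -0.06 ± 0.63, with a change of sign for Abi2. The other tested member, the activator Wasf1, had a log2 fold change of 0.33 ± 0.55.

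None of the listed pericyte genes passed the test in either direction. Over the shallower members Atp13a5 stood at 2307 and 2638 in WT against 2479 and 2793 CPM in KI. Pdgfrb stood at 805 and 1131 in WT against 749 and 1124 CPM in KI, with overlapping groups for both genes. Notch3 did not overlap and was higher in KI in these nuclei, at 376 and 528 in WT against 778 and 617 CPM in KI (log2 0.74 ± 0.37), and Vtn did not overlap and was lower, at 992 and 1432 in WT against 894 and 762 CPM in KI (-0.45 ± 0.36). Vtn was the marker of the rule furthest from 0 over all members, at 946 and 555 in WT against 382 and 411 CPM in KI, a log2 difference of -0.87 ± 0.49. Since these genes chose the nuclei, their differences are a description. Of the 20 pericyte genes outside the rule, 7 were tested with 0 at an unadjusted p below 0.05 in either direction (8.94% of all tested genes) and a median log2 fold change of -0.15, against 0.01 over all tested genes. Over the shallower members the median of the 4 tested was 0.08, against 0.04.

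Contractile and vasomotor genes held 2 members with an unadjusted p below 0.05, and neither passed adjustment. Mylk, the kinase that activates smooth muscle myosin, stood at 284 and 602 in WT against 117 and 146 CPM in KI (log2 fold change -1.74 ± 0.50, adjusted p = 0.302). Of its 86 UMIs 53.5% lay in 2 nuclei of WT replicate 2, and over the shallower members it stood at 322 and 226 in WT against 288 and 326 CPM in KI (0.20 ± 0.48). Pde8b, a cyclic AMP phosphodiesterase, stood at 1632 and 1307 in WT against 658 and 637 CPM in KI (-1.14 ± 0.44, adjusted p = 0.508). Its UMIs were spread over 94 members, and over the shallower members the KI libraries were still below both WT libraries, at 1824 and 2676 in WT against 1470 and 1270 CPM in KI (-0.62 ± 0.35, adjusted p = 0.675). Of the 25 ion channel and vasomotor genes 16 were tested, with 0 higher and 1 lower at an unadjusted p below 0.05 (6.02% and 2.92% of all tested genes) and a median of -0.27, against 0.01 over all tested genes. The median of the 13 tested in the shallower members was -0.12, against 0.04. Prkg1, the cyclic GMP-dependent kinase of the nitric oxide pathway, stood at 1442 and 1678 in WT against 1199 and 1287 CPM in KI. In the shallower members its groups overlapped and the sign turned, at 1609 and 2412 in WT against 2046 and 2213 CPM in KI (0.17 ± 0.33). The calcium channel subunit genes Cacna1c and Cacnb2 stood at 730 to 1560 and 686 to 1348 CPM, with overlapping groups. Kcnma1, the large-conductance potassium channel, stood at 567 and 1226 in WT against 1210 and 770 CPM in KI, and in the shallower members at 510 and 415 in WT against 375 and 363 CPM in KI (-0.26 ± 0.34), with a change of sign. Cacna1c, Cacnb2 and Kcnma1 were also found in excitatory neurons, at means of 1050, 2038 and 1493 CPM. The whole list of ion channel and vasomotor genes summed to between 7696 and 10240 CPM in the members. In excitatory neurons it summed to between 8782 and 9632 CPM.

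In the contractile list 2 of 15 genes were tested, with 0 higher and 1 lower, Mylk, where 2.92% of all tested genes were lower. Mrvi1, a substrate of the cyclic GMP-dependent kinase, stood at 118 and 139 in WT against 127 and 92.9 CPM in KI. Synpo2 rested on 64 UMIs in 4 nuclei, and its KI replicate 1 value of 658 CPM came from deep members, since the shallower members of that library had 0 CPM. Carmn, named above for its level, stood at 520 and 231 in WT against 149 and 119 CPM in KI (-1.37 ± 0.54, adjusted p = 0.513), and in the shallower members at 590 and 565 in WT against 375 and 254 CPM in KI (-0.77 ± 0.36, adjusted p = 0.675).

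The list of basement membrane and matrix genes, which also holds the cytoskeletal regulators Dlc1 and Cald1 and does not hold Col4a3, had 1 member with an unadjusted p below 0.05, 1 of 8 tested over all members and 1 of 6 over the shallower ones, where 6.02% and 4.74% of all tested genes were higher. Col4a1 (chromosome 8, 11198423 to 11312826, minus strand, GRCm38), a chain of the collagen IV network of the vascular basement membrane, stood at 70.9 and 92.6 in WT against 297 and 199 CPM in KI (log2 fold change 1.60 ± 0.47, adjusted p = 0.306). Over the shallower members it stood at 80.5 and 113 in WT against 692 and 326 CPM in KI (2.50 ± 0.64, adjusted p = 0.365), from 6 WT and 33 KI UMIs. Of the 21 genes of this list 8 were tested over all members, with 1 higher and 0 lower at an unadjusted p below 0.05 and a median of -0.12. Over the 6 tested in the shallower members the median was 0.23, of the opposite sign. The most abundant genes of the list had larger p-values. Dlc1, which codes for a GTPase-activating protein, stood at 2152 and 1724 in WT against 1815 and 1632 CPM in KI, and in the shallower members at 2414 and 4032 in WT against 3978 and 3228 CPM in KI (0.26 ± 0.35), where the sign turned. Cald1, the actin regulator caldesmon, stood at 993 and 694 in WT against 573 and 610 CPM in KI, and over the shallower members at 1046 and 1583 against 1441 and 1378 CPM. The laminin chain gene Lama2 stood at 662 and 255 in WT against 393 and 411 CPM in KI, with overlapping groups, and its log2 ratio went from -0.11 ± 0.56 to 0.56 ± 0.40, with the sign turned, in the shallower members. Itga1, a collagen-binding integrin gene, stood at 426 and 174 in WT against 244 and 119 CPM in KI, with a log2 ratio of -0.57 ± 0.58 over all members and -0.006 ± 0.50 over the shallower ones. Col4a2, the partner chain of Col4a1, stood at 166 and 23.1 in WT against 170 and 53.1 CPM in KI.

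Over the shallower members further genes that were higher in both KI libraries had an unadjusted p below 0.05 and were named by the same rule of size, level and non-overlap. Col4a3, another collagen IV chain, stood at 26.8 and 75.4 in WT against 375 and 326 CPM in KI (2.87 ± 0.98, adjusted p = 0.638), from 3 WT and 22 KI UMIs. Igfbp7, a secreted insulin-like growth factor binding protein, stood at 241 and 377 in WT against 749 and 943 CPM in KI (1.54 ± 0.38, adjusted p = 0.365). Dcdc2a, a microtubule-binding protein gene, stood at 134 and 151 in WT against 721 and 363 CPM in KI (2.02 ± 0.54). Adap2os stood at 295 and 226 in WT against 663 and 725 CPM in KI (1.45 ± 0.35). Also named were H3f3b, a histone gene (1.43 ± 0.44), and the receptor gene Igf1r (1.51 ± 0.48). Over all members H3f3b was at 0.54 ± 0.50 and Igf1r at 0.26 ± 0.43, and Igf1r turned to -0.28 when members with an exclusion gene were left out. None of these genes passed adjustment, with adjusted p-values of 0.365 to 0.638. Trpm3, a cation channel gene, led the genes lower in KI beside Slc1a2, at 456 and 603 in WT against 86.5 and 181 CPM in KI (-1.91 ± 0.50, adjusted p = 0.365). Over all members it was at -1.07 ± 0.85, and from -3.34 to -0.19 without single libraries. Ddx5, Hs6st3, Plcb1 and Tmeff2 followed at log2 ratios of -1.06 to -1.41. Over all members Ddx5 was at -1.68 and Plcb1 at -0.57, the latter from -1.05 to -0.005 without single libraries. The sign turned for Hs6st3 (0.35) and Tmeff2 (0.21). Choroid plexus markers, 5 of 8 detected with Folr1, Kcne2 and Aqp1 at 0, summed to 563 and 188 in WT against 144 and 145 CPM in KI over the shallower members, and their part in the lower values was not tested.

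Endothelial markers moved with these genes. The 8 markers summed to 349 and 226 CPM in the shallower WT members and 1297 and 762 CPM in the KI members, with 7 of 8 detected in the members and Mecom at 0. In KI replicate 1 a single nucleus held 35 of the 45 endothelial marker UMIs, and in KI replicate 2 a single nucleus held 16 of 21. Over the 61 shallower members without any endothelial marker UMI (17 and 13 in WT, 15 and 16 in KI) Col4a1 stood at 91.0 and 171 in WT against 637 and 256 CPM in KI, and Igfbp7 at 319 and 398 CPM against 797 and 666 CPM. For Col4a1 these levels rest on 2 and 3 UMIs in WT and 12 and 5 in KI, and for Igfbp7 on 7 in each WT library and 15 and 13 in KI. This split was made after the values were seen and has no test, and the part of endothelial RNA in the higher values was not tested.

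**Figure D4:**
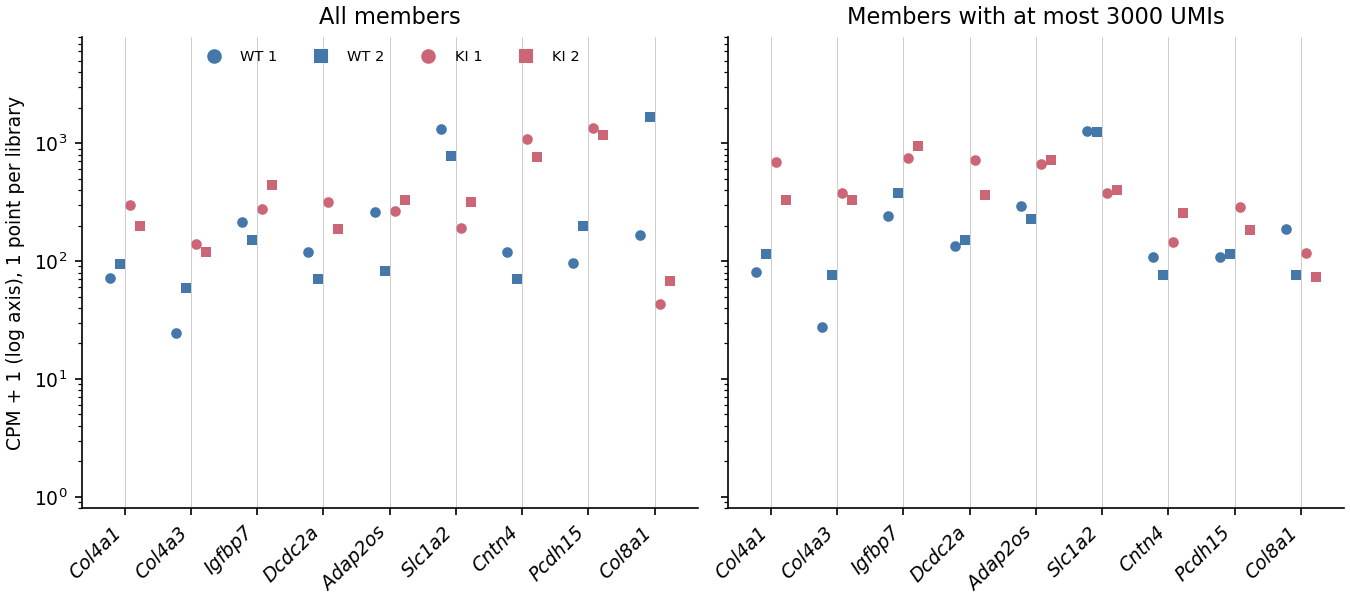
CPM + 1 on a log axis for 9 genes named in the text, 1 point per library, over all members (left) and over members with at most 3000 UMIs (right). Col4a1, Col4a3, Igfbp7 and Dcdc2a lie higher in both KI libraries in both panels, while the separation of Cntn4 and Col8a1 in the left panel is smaller or absent in the right panel.

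The genes with the smallest p over all members were named by rule, up to 8 in each direction. The 8 named as higher in KI were Cntn4, Pcdh15, Hmcn1, Kcnc2, Sorcs1, A230006K03Rik, Il1rapl2 and Etl4. Cntn4, a neuronal adhesion molecule, stood at 118 and 69.4 in WT against 1083 and 756 CPM in KI (3.39 ± 0.57, adjusted p = 0.151), and 89.4% of its UMIs lay in the deep members. Pcdh15, a protocadherin gene, stood at 94.6 and 197 in WT against 1337 and 1181 CPM in KI (3.08 ± 0.52, adjusted p = 0.151), with 75.4% of its UMIs in 2 nuclei. Hmcn1, which codes for the matrix protein hemicentin, had 0 UMIs in both WT libraries and stood at 212 and 265 CPM in KI, at least 10.1-fold higher against a floor of 3 UMIs over the WT group, with 90.0% of its 40 UMIs in 2 nuclei. Kcnc2, a potassium channel gene of interneurons, stood at 142 and 139 in WT against 1539 and 783 CPM in KI, with 91.0% of its UMIs in deep members. For all 8 genes at least 83.3% of the UMIs lay in the deep members.

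Lower in KI were Col8a1, Slc1a3, Slc1a2, Nkain3, Sorl1, Wdr17, Slc4a4 and Mylk. Col8a1, a short-chain collagen gene, stood at 166 and 1655 in WT against 42.5 and 66.3 CPM in KI (-4.02 ± 0.98, adjusted p = 0.299). Of its 159 UMIs 140 came from 2 nuclei of WT replicate 2, and its log2 ratio ran from -4.78 to -1.52 without single libraries. Slc1a2, which codes for the astrocyte glutamate transporter GLT-1, stood at 1324 and 775 in WT against 191 and 318 CPM in KI (-2.0 ± 0.54, adjusted p = 0.302). Over the shallower members it had the smallest p of the 401 genes tested, at 1261 and 1244 in WT against 375 and 399 CPM in KI (-1.61 ± 0.35, adjusted p = 0.365). Slc1a3, the other astrocyte glutamate transporter gene, stood at 260 and 208 in WT against 53.1 and 39.8 CPM in KI. Slc4a4, a bicarbonate transporter gene of astrocytes, stood at 236 and 243 in WT against 84.9 and 53.1 CPM in KI.

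The summed level of the astrocyte markers was lower in both KI libraries, in members and in all other nuclei. Of the 8 markers 2 were tested over all members, Slc1a2 and Slc4a4, and 0 passed adjustment. The 8 astrocyte markers, all detected, summed to 2057 and 1145 CPM in the WT members and 318 and 464 CPM in the KI members. In all other nuclei the same list summed to 732 and 773 in WT against 439 and 475 CPM in KI, and Slc1a2 alone stood at 338 and 407 in WT against 268 and 257 CPM in KI. The test of whether the KI effect on Slc1a2 differed between members and all other nuclei gave a log2 difference of -1.38 ± 0.55 with an adjusted p of 1. In the shallower members the list had 70 and 44 UMIs in WT replicates 1 and 2 and 16 and 15 in KI replicates 1 and 2. A single nucleus held 25 of the 70 and another 28 of the 44, while no nucleus held more than 5 in KI. The part of astrocyte RNA, and of these nuclei, in the lower values was not tested further. Plpp3, a lipid phosphatase gene of the study's list that is abundant in astrocytes, stood at 307 and 220 in WT against 84.9 and 106 CPM in KI (-1.37 ± 0.46, adjusted p = 0.404).

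The neuron list was higher in KI by value, at 2719 and 3760 in WT against 5084 and 4419 CPM in KI over all members, but at 2548 and 1922 against 1960 and 2793 CPM over the shallower members, where the groups overlapped. Syt1, the synaptic vesicle calcium sensor, stood at 1324 and 1840 in WT against 3513 and 2680 CPM in KI, with 84.2% of its UMIs in deep members. The markers of oligodendrocyte precursors summed to 118 and 104 CPM in WT and 425 in both KI libraries, and to 134 and 37.7 against 115 and 72.5 CPM over the shallower members. Oligodendrocyte markers summed to 1348 and 440 in WT against 446 and 849 CPM in KI. Fibroblast markers summed to between 57.9 and 252 CPM with Col1a1 at 0, and the microglial markers to between 133 and 284 CPM with Csf1r and Siglech at 0. Red blood cell genes gave 8607 CPM in WT replicate 1 and at most 46.3 CPM in the other libraries, and 362 of their 371 UMIs lay in 2 nuclei.

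**Figure D5:**
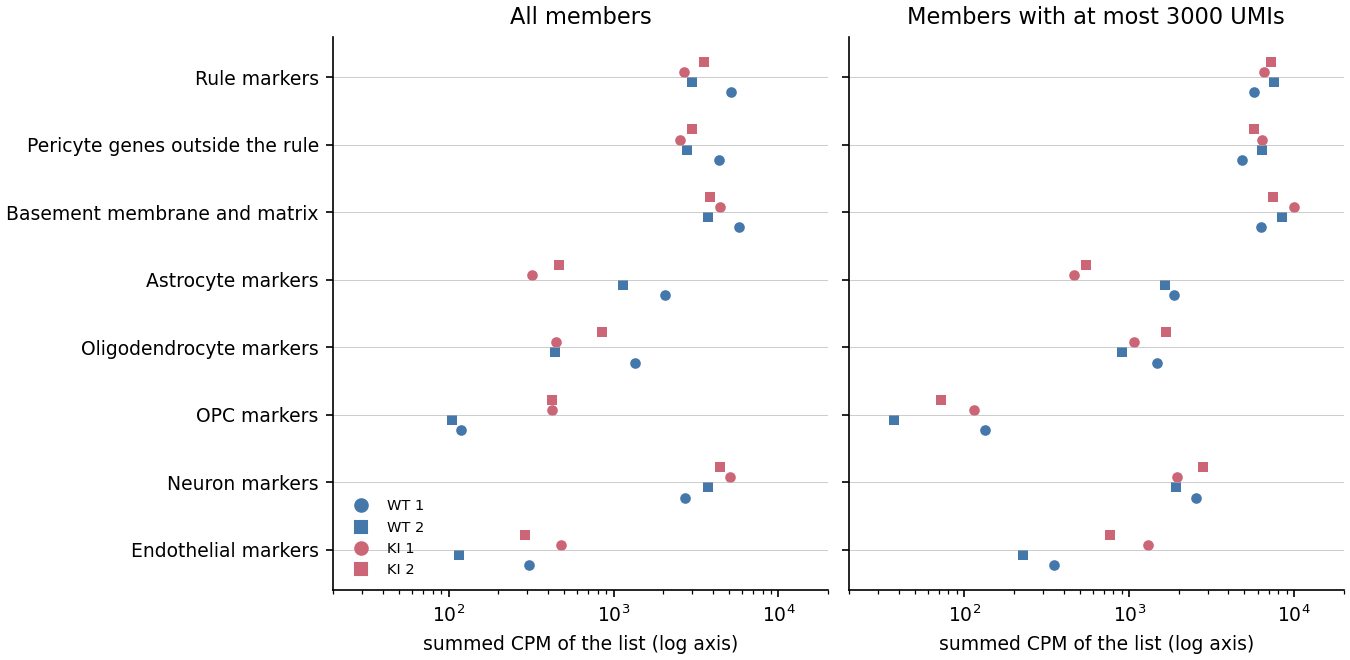
Summed CPM of 8 gene lists in each library on a log axis, over all members (left) and over members with at most 3000 UMIs (right). Rule markers lie between 2686 and 5178 CPM on the left and between 5740 and 7537 CPM on the right, and astrocyte markers are lower in both KI libraries in both panels.

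Signalling and response genes were mostly below the level that could be tested. None of the 28 genes of PDGF, angiopoietin, TGF-beta and Notch signalling passed the filter on low counts, although 27 had a UMI. Tgfbr3, a TGF-beta co-receptor, stood at 94.6 and 46.3 in WT against 95.5 and 92.9 CPM in KI, and the ligand gene Tgfb2 at 70.9 and 46.3 against 127 and 26.5 CPM. Of 26 inflammatory and fibrotic genes 18 had a UMI, and Il6, Ccl2, Cxcl1, Icam1, Vcam1, Lcn2, Col5a1 and Timp1 had none. Nfkb1, a subunit of NF-kappa-B, was the 1 gene tested, at 142 and 255 in WT against 95.5 and 79.6 CPM in KI (-1.18 ± 0.50, adjusted p = 0.533). Over the shallower members it stood at 134 and 113 in WT against 173 and 109 CPM in KI. Of 21 immediate early and stress response genes 2 were tested and of 13 hypoxia response genes 1, with 0 at an unadjusted p below 0.05 (8.94% of all tested genes). The immediate early genes Fos and Atf3 had 0 UMIs in the members.

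Among the 17 genes of the list drawn from the study, 9 were tested, with 0 higher and 1 lower, Plpp3, at an unadjusted p below 0.05, where 2.92% of all tested genes were lower. Angpt1, the angiopoietin ligand that mural cells supply to endothelial cells, had 13 UMIs in 4 members, at 47.3 and 0 in WT against 21.2 and 119 CPM in KI, too few to test. Apod stood at 449 and 23.1 in WT against 510 and 212 CPM in KI. Ptgds stood at 1135 and 139 in WT against 467 and 2495 CPM in KI, and Apoe at 1868 and 312 against 234 and 372 CPM. A single nucleus held 56.8% of the 292 UMIs of Ptgds, and in the shallower members it stood at 1261 and 301 in WT against 1095 and 472 CPM in KI. Apod and Apoe were at log2 ratios of 0.85 ± 0.97 and -1.81 ± 0.80 over all members and 1.62 ± 0.78 and -0.43 ± 0.50 over the shallower ones. The WT and KI values overlapped for these 3 lipid carrier genes.

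Whether a KI effect was particular to mural nuclei was tested as an interaction of class and genotype in which both classes of a library were blocked together. Against endothelial nuclei 14 of 1452 genes passed (0.964%). Against all other kept nuclei 8 of 20155 passed (0.0397%). Over the members of at most 3000 UMIs the first count was 0 and the second 2, Gpc5 and Hbb-bs, both with a lower KI effect in members. This limit was set on members only, and the nuclei compared with them kept every depth. Kcnq5, a potassium channel gene, was the 1 gene of the 14 with a lower KI effect in members. It stood at 187 and 891 in WT against 2853 and 4096 CPM in KI in the 79 endothelial nuclei. In the members it stood at 213 and 1643 in WT against 372 and 571 CPM in KI. The neuron markers summed to 3811 and 3846 in WT against 4468 and 4271 CPM in KI in the endothelial nuclei. Those of KI replicate 1 had a median of 1470 UMIs and a sum of 60648. The part of neuronal RNA in the Kcnq5 values was not tested. The other 13 genes of the 14 were higher in KI in members than in endothelial nuclei. Between 74.3% and 96.0% of their member UMIs lay in the deep nuclei. No gene of the pericyte, contractile, vasomotor or matrix lists was among the 22 results. The matrix gene Hmcn1 and the collagen gene Col8a1 were among them but are not on the matrix list.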

How the data were processed

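The authors aligned single-nucleus RNA reads to the mouse genome (mm10) with Cell Ranger (7.0.1 per the file headers) and deposited filtered matrices of UMI counts per gene and barcode, 1 per library. The libraries were made with the Chromium 3′ kit. WT and KI groups came from the genotype labels. The 4 libraries held 73009975 to 80913580 UMIs. From those counts, members were found by the rule in the report, UMIs were summed per library, and the sums were tested with edgeR 4.0.16 (filterByExpr, TMM, quasi-likelihood, adjusted p of 0.05). The study tested single nuclei, which are not replicates. Shares were compared by exact permutation tests, with exact 95% binomial intervals. Doublet scores came from Scrublet in Scanpy 1.11.5 and removed no nucleus from the main results. Endothelial, fibroblast and excitatory nuclei were found by marker rules of their own. Scripts were tested on simulated counts. The members and gene lists were chosen with earlier results of these data known, and the limit of 3000 UMIs after member depths were seen. Genes were named when their adjusted p passed, as up to 8 per direction of smallest p with at least 100 CPM and no overlap, as rule markers, as list members with an unadjusted p below 0.05 or among the most abundant of their list, and Cyfip2. Coordinates are from GENCODE M21 and promoters from RefSeq, both GRCm38. Alternatives were DESeq2 1.42.0, other scalings, filters, thresholds and depths, each library left out, and blocks. A result that fell under the naming rule is not reported here.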

Additional observations from a re-analysis of the deposited data

Results flagged for a closer look

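By the class-by-genotype test the KI effect differed between all members and endothelial nuclei for 14 genes, given here as log2 differences (members minus endothelial). They were Kcnq5 at -3.55, Chsy3 at 5.24, Tshz2 at 4.61, Ptprt at 4.55, Lhfpl3 at 4.18, Ptprm at 3.93, Gabrg3 at 3.85, Cntnap5b at 3.67, Sgcz at 3.38, Kcnh7 at 3.22, Gabrb2 at 3.20, Pcdh15 at 3.07 and Sgcd at 2.81. Hmcn1, with 0 UMIs in the WT members, passed at an adjusted p of 0.000251. They include the potassium channel genes Kcnq5 and Kcnh7 and the GABA receptor subunit genes Gabrg3 and Gabrb2. The endothelial sums came from 12 to 32 nuclei per library. Most member UMIs of these genes other than Kcnq5 lay in the deep members, which carried neuronal RNA. Over members of at most 3000 UMIs, with no limit on the depth of endothelial nuclei, 0 genes passed. The count was also 0 with doublet scores above 0.25 left out (smallest adjusted p 0.0747) and without the low-count filter (0.109), and 4 without WT replicate 2.

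Between all members and all other kept nuclei the effect differed for 8 genes. The log2 differences were -4.25 for Col8a1, 4.79 for Il1rapl2, 2.94 for Kcnc2, -4.28 for Hbb-bs, 2.98 for Cntn4 and 2.87 for Cntn5. Otx2os1, at 0 UMIs in the KI members, passed at an adjusted p of 0.00140, and all 45 of its UMIs lay in 2 nuclei of WT replicate 2. Kcnmb2, at 0 UMIs in the WT members, passed at an adjusted p of 0.0252, with 23 UMIs in 5 nuclei. Single nuclei weighed heavily on the others too. For Il1rapl2 78.3% of the UMIs lay in 1 nucleus of KI replicate 1, for Hbb-bs 91.9% in 1 nucleus of WT replicate 1, and for Cntn5 50.8% in 1 nucleus.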

How the results depend on the processing

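No gene passed in members under DESeq2 size factors, library totals, at least 4 markers, no exclusion gene or doublet scores above 0.25 left out. None passed with at least 1000 genes, equal depth, at most 3000 UMIs or nuclei capped at 1000 UMIs. Equal depth refers to the summed UMIs, 42291 in each library. DESeq2 called 9, no low-count filter 37, and at least 2 rule markers 2 (Abi3bp and Sorcs1). Leaving out each library in turn, where the lone library is assumed to vary like the other group, gave 11 to 57 calls, 11 of them without KI replicate 1, 49 without WT replicate 1, 55 without KI replicate 2 and 57 without WT replicate 2. With the replicate number as a block 0 genes passed (92 at an unadjusted p below 0.05), and with the crossed pairing 0 (155). Same-numbered libraries deviated with a correlation of -0.125, and share only a number. Scaling by library totals put the median of the tested genes at -0.15 (log2).

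Against endothelial nuclei the count of 14 became 0 without the low-count filter, with doublet scores left out and at most 3000 UMIs, and 4 to 38 without single libraries (4 without WT replicate 2, 38 without KI replicate 2, 33 without WT replicate 1, 25 without KI replicate 1). Against all other nuclei the count of 8 became 2 at most 3000 UMIs and 3 to 16 without single libraries (3 without KI replicate 1, 16 without WT replicate 1). The difference in the share of all kept nuclei ranged from 0.0170 to 0.0532 points without single libraries. That among vascular nuclei ranged from -0.137 to 3.85 points, with the sign turned without WT replicate 1. That of nuclei with contractile UMIs ranged from -9.45 to 5.36 points, with the sign turned without WT replicate 2 and, at 2.05 points, after thinning to 1000 UMIs.

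Of 34 named genes recomputed, 6 changed sign somewhere and 17 passed the threshold in some setting. Cyfip2 went to -0.11 with library totals, -0.12 with the crossed replicate block and from -1.29 to 1.34 without single libraries. At most 3000 UMIs turned Mylk (0.20), Hs6st3 (-1.23) and Tmeff2 (-1.28). Hs6st3 was at -0.34 with at least 2 markers and -0.24 with nuclei capped at 1000 UMIs. Tmeff2 was at -0.21 with at least 4 markers, -0.045 at equal depth and from -0.14 to 0.59 without single libraries. Igf1r was at -0.28 with no exclusion gene and Trpm3 at 0.12 with at least 2 markers. The cause of these changes was not tested.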
